A study of Mus musculus with 2 samples.

Results

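Protein-folding chaperones of the cytosol and the mitochondria were examined in mouse hybridoma cells exposed to the bursal peptide BSP-II. The genes were chosen by symbol: every gene starting Hspa, Hspb, Hspd, Hspe, Hsph, Hsp90, Dnaja, Dnajb, Dnajc, Bag, or Cct with a number, apart from Hspa5, Hsp90b1, Dnajb9, Dnajb11 and Dnajc3 of the endoplasmic reticulum (ER). This gave 80 genes, read by 126 probes, of 17302 named genes and 41174 gene probes on the array. A hybridoma joins a B cell to a myeloma cell, so that it divides without limit and secretes antibody; this line is given as 1H5F9. One array held RNA of cells kept for 4 h with 0 µg/ml BSP-II (untreated) and the other RNA of cells given 5 µg/ml for 4 h. Both groups grew in the same serum-supplemented medium, and no vehicle is named. The design text speaks of 2 independent experiments, but the arrays used here share replicate number 1. With 1 array a group, no difference below has a replicate check or a test.

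The symbols and the name of the set overlap only in part. Hspa13, Dnajc1, Dnajc10, Dnajc18 and Dnajb12 are known as proteins of the ER or its membrane. Hspb11 is a subunit of the transport machinery of cilia, and Hspbp1 and Hspbap1 bind heat shock proteins without being small heat shock proteins themselves. They were kept because the rule takes them.

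Chaperones bind unfolded stretches of other proteins and let them fold. HSP70 proteins do so in a cycle of ATP hydrolysis, which J-domain proteins (the DNAJ families) start and nucleotide exchange factors (HSP110 and BAG proteins) end. HSP90 takes over late folding steps of kinases and receptors, while closed chambers, CCT in the cytosol and HSP60 with its lid HSP10 in mitochondria, enclose whole proteins. Heat and unfolded protein free the transcription factor HSF1, which binds heat shock elements in the promoters of many of these genes, and antibody-secreting cells carry a large folding load, mainly in the ER.

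The array signal of a spot is its brightness after background subtraction. The 75th percentile of the BSP-II array was 1.15 times that of the untreated array (356 and 309), so signals are given as measured, and the log2 differences (BSP-II minus untreated) after both arrays were set to the same 75th percentile. Of the 80 genes, 72 passed as well above background on each array and are called measured. Over all 12857 measured genes the log2 differences had a median of −0.03, quartiles of −0.19 and 0.11 and an SD of 0.31. The error that Agilent's software gives for a spot came to a median of 0.21 for a log2 difference, and it leaves out differences between cultures and hybridisations. Genes at or above the median level are called brighter. The hybridoma label was checked with markers: all 12 B lineage and plasma cell genes were above background on both arrays, led by Jchain (150869 and 155073), although Cd79a was near background (23.7 and 22.3). T cell markers reached at most 468 (Cd2) and myeloid and fibroblast markers at most 104 (Csf1r), while the epithelial gene Epcam was bright (4123 and 4781).

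The chaperones as a set lay where all genes lay. Their median log2 difference was −0.02, with quartiles of −0.11 and 0.09, and 40 of the 72 (55.6%) were above the median of all genes. With a threshold of 0.32 on the log2 scale, 2 lay past it on the higher side (2.78%, against 5.64% of all genes) and 4 on the lower side (5.56%, against 14.4%). That split was 3 and 3 with quantile scaling (7.78% and 11.0% of all genes) or loess scaling (8.29% and 10.1%). In the authors' value table, whose centring moved the median of all genes up by 0.13, it was 7 and 3 of 71 members, against 13.9% and 7.39% of all genes. At 1.5-fold, no member was higher (1.21% of all genes) and 1, Hspb7, was lower (4.83%). At 2-fold, 0 were higher (0.202%) and Hspb7 was lower (1%), though not without background subtraction or with normexp.

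Dim genes differed more than bright ones over the whole array. Among the 49 brighter members, 1 (Dnajc18) was past the threshold on the higher side and 1 (Dnajc25) on the lower side, against 2.55% and 4.09% of all brighter genes. Among the 49 brighter members, 40 (81.6%) differed by less than the 0.21 of Agilent's spot error, against 81.5% of all brighter genes. Among the 23 dimmer members, 15 (65.2%) did, against 46.8% of all dimmer genes. The plot of differences by family shows most genes inside the quartiles of all genes, with 6 named genes outside the threshold lines.

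**Figure D1:**
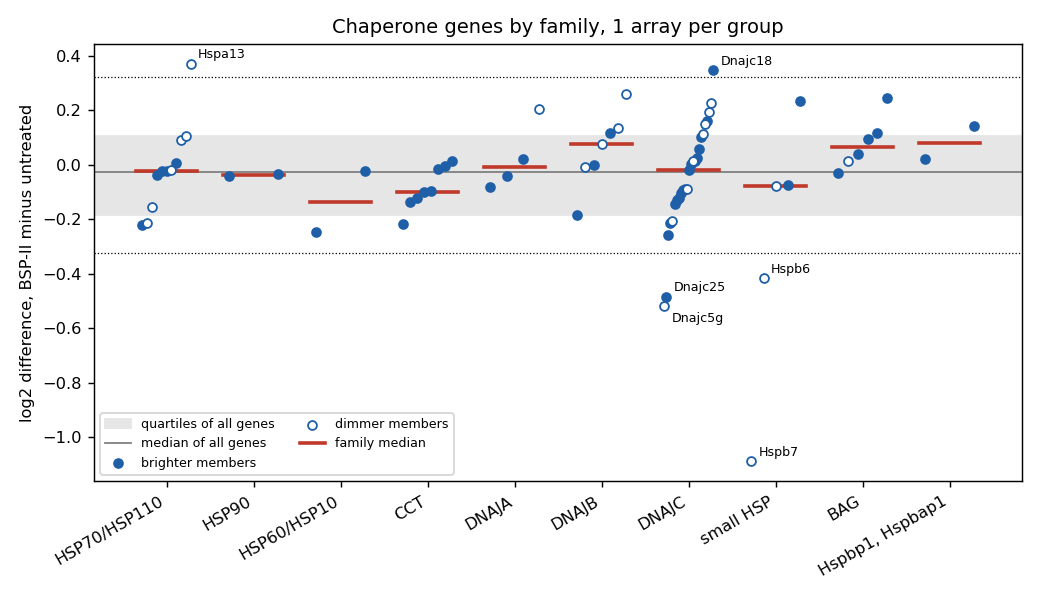
Log2 difference (BSP-II minus untreated, vertical axis) of each of the 72 measured chaperone genes, by family (horizontal axis). Filled points are brighter and open points dimmer members, red bars are family medians, the grey band spans the quartiles of all genes (−0.19 to 0.11) and dotted lines mark the threshold of 0.32; Hspb7 is the lowest at −1.09 and Hspa13 the highest at 0.37.

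**Figure D2:**
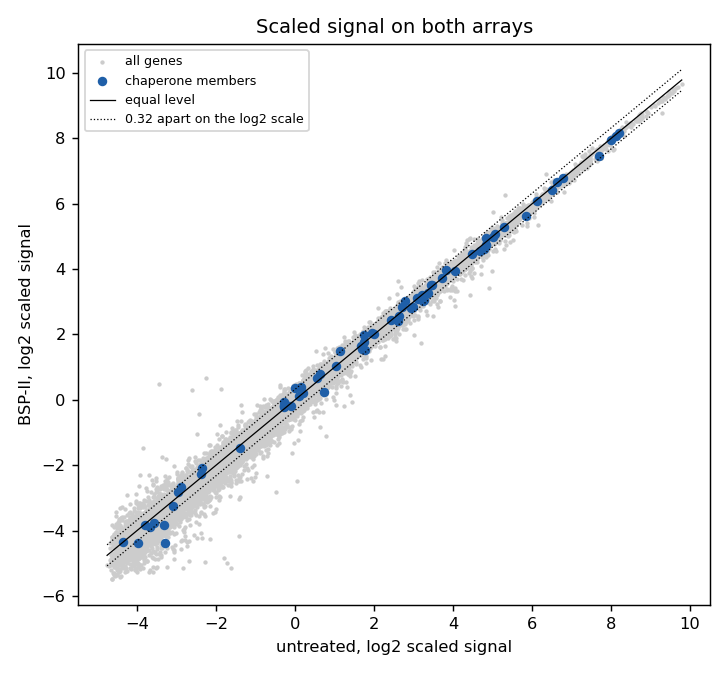
Scaled log2 signal of the untreated array (horizontal) against that of the BSP-II array (vertical) for all 12857 genes (grey) and the 72 chaperones (blue); the solid line is equal level and the dotted lines are 0.32 apart from it. The bright chaperones lie close to the line, and Hspb7 is the blue point farthest below it.

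By the probe used, the abundant HSP70 genes lay near the median of all genes. Hspa8, which encodes the constitutive cytosolic HSC70, gave 79327 untreated and 89162 with BSP-II, a log2 difference of −0.04. Its other probe read 41546 and 36558 and gave −0.39, so the probes of this gene did not return the same size. Hspa9, the mitochondrial HSP70 (mortalin), gave 10035 and 11380, a difference of −0.02, with −0.04 at its other probe. Hspa14, which with the J protein Dnajc2 forms the ribosome-associated complex, gave 6876 and 7795 and also stood at −0.02.

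The HSP110 genes, exchange factors for HSP70, split. Hsph1 gave 17915 and 17708, which after scaling was a difference of −0.22. Hspa4 gave 4064 and 4704, a difference of 0.0059, and its other probes gave 0.30 and −0.04. Hspa4l was dimmer, at 257 and 318, with 0.11 by this probe and 0.24 and 0.44 by its other probes, so all its probes pointed the same way.

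Stress-inducible HSP70 was close to absent from both arrays. Hspa1a, a main HSF1 target, read 3.21 untreated, which was not well above background, and 10.9 with BSP-II, which was. The lowest signal well above background on the untreated array was 11.4, so no fold can be given. Its other probe was not above background on either array, at 2.60 and 1.68. Hspa1b, its near-identical neighbour, read 8.18 and 7.88, not well above background on either array. Which of the pair a probe reads cannot be told from the files, which hold no probe sequences.

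The remaining HSP70 genes were dim or of other roles. Hspa2, best known from germ cells, gave 255 and 313 and stood at 0.09, with 0.14 at its other probe. Hspa1l, a germ cell HSP70, gave 36.3 and 37.6 (−0.15). Hspa13, an HSP70-like ATPase of microsomes, gave 309 and 460 and was the highest of all members at 0.37 (1.29-fold), but its other probe gave −0.15. Of the atypical HSP70 genes, Hspa12b stood at −0.02. Hspa12a stood at −0.21 by its brightest probe (26.2 and 26.0). Another Hspa12a probe read 2.95 untreated, not above background, and 59.3 with BSP-II, at least 4.51-fold higher, while its last was below background on both arrays. The probes of Hspa12a thus gave no common direction.

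HSP90 of the cytosol was nearly equal on the arrays. Hsp90aa1, the inducible form, gave 90871 and 101862, a difference of −0.04. Hsp90ab1, the constitutive form, gave 85950 and 96719, a difference of −0.03, with −0.06 at its other probe. On the array, the spot of Hsp90ab1 had 2 or more spots within 3 rows and columns that shared a direction and passed 2-fold. Such spots, called clustered here, carried 8 of the measured members and 8.08% of all measured genes; the others were Bag2, Dnajc1, Dnajc11, Dnajc30, Hspa12b, Hspb6 and Hspb7, and any part of the neighbourhood in their values was not tested.

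Of the 22 HSP90 cochaperones, listed because they hand clients to HSP90 or tune its ATPase, all 22 were measured. None passed the threshold, against 5.64% of all genes on the higher side and 14.4% on the lower side. Among brighter genes, which most of the cochaperones are, these shares were 2.55% and 4.09%. The cochaperone median was −0.04, and 10 lay above that of all genes. The peptidyl-prolyl isomerase Ppid stood at −0.20 (−0.23 at its other probe), the ATPase activator Ahsa1 at −0.17 and Cdc37l1 at −0.15. In the R2TP complex, an HSP90 partner in assembling large complexes, the members went apart. Ruvbl1 and Ruvbl2 stood at 0.03 and 0.02, Pih1d1 at −0.25 and Rpap3, which tethers HSP90 to the complex, at 0.83 (518 and 1060). Rpap3 had no other detected probe. It was the 1 gene of these 4 past the threshold on the higher side (5.64% of all genes), with 0 on the lower (14.4%).

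The mitochondrial chamber showed unequal values for its parts. Hspd1, which encodes HSP60, gave 64110 untreated and 62278 with BSP-II, a log2 difference of −0.25, and its other probe gave −0.19 (10123 and 10202). Hspe1, which encodes HSP10, gave 21474 and 24359, a difference of −0.02. Hspd1 was thus below the quartile of all genes by both probes and Hspe1 was not. Hspe1 was read by 1 probe, and the gap of the genes, which holds the errors of both spots, is close to the error of 1 spot.

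These genes stand head to head and share 1 control region. The stretch of it that matches a long heat shock element, the sequence HSF1 is known to bind, is printed here with those of the only other members in the table that hold one. The search used GAANNTTCNNGAA and TTCNNGAANNTTC, which are each other's reverse complement, over 250 bases before to 50 after each start in RefSeq's promoter windows (GRCm38.p6). Of the 64 members in that table, 4 held a match (6.25%), as did 0.662% of all 27025 genes there (0.603% of 32851 windows). Capitals mark the element and any overlapping repeat of it. Hspd1 is shown on the minus and Hspe1 on the plus strand of chr1:55088035-55088100, which lies between starts 216 bases apart. For another listed Hspd1 start, the Hspe1 start minus the Hspd1 start is −95 bases. The stretch does not lie between that start and Hspe1's. Dnajb6 is shown on the plus strand of chr5:29735828-29735888. The Hsph1 match lies after its start, on the minus strand of chr5:149636280-149636308.
Hspd1: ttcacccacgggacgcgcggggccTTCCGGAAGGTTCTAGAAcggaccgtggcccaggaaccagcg
Hspe1: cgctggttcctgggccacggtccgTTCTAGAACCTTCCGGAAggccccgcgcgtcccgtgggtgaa
Dnajb6: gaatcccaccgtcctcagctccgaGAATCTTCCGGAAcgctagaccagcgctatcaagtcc
Hsph1: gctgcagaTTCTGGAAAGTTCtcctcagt

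By the probes used, the genes with these elements were not higher on the BSP-II array. Hspd1 stood at −0.25, Hsph1 at −0.22, Dnajb6 at −0.18 and Hspe1 at −0.02. Their median was −0.20, beside −0.0074 for the 53 measured members whose windows lacked a match. The other probe of Hspd1 gave −0.19, and those of Dnajb6 gave −0.15 and, past the threshold, 0.40. Over all 55 measured genes with such an element, the median was −0.06, near the −0.03 of all genes. The inducible genes Hspa1a and Hspa1b hold only the shorter form GAANNTTC within these windows. A search for GAANNTTC or TTCNNGAA, which also takes the longer elements, matched 17.0% of genes and 21 of the 64 members (32.8%). The 17 measured members with such a match had a median of −0.07 and the 40 without one a median of 0.0010. The windows of Hspa1a and Hspa1b were identical at 296 of 300 positions. Both carry this stretch on the minus strand, at chr17:34972229-34972284 for Hspa1a and chr17:34959311-34959366 for Hspa1b.
Hspa1a: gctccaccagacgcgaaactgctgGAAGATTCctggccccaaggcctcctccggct
Hspa1b: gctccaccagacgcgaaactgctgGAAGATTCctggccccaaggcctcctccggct
A match describes letters in a window and says nothing of binding in these cells.

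A list of 23 genes that HSF1 is known to induce, 16 of them members, had 21 measured genes with a median of −0.04, and 8 of the 21 lay above the all-gene median. Past the threshold was 1 on the higher side (5.64% of all genes), the haem oxygenase Hmox1 (0.50). On the lower side (14.4% of all genes) was 1, the small heat shock protein Cryab (−0.57, at the low signals of 74.7 and 58.1). Hsf1 itself gave 3341 and 4084, a difference of 0.08, with 0.04 at its other probe. Its relative Hsf2 was not well above background on either array (4.48 and 1.95), and the HSF1-binding protein Hsbp1 stood at 0.15 with values near 0 at its other probes.

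Mitochondrial members as a whole lay at the median of all genes. The 9 genes placed in mitochondria by textbook location had a median of −0.02 and a range of −0.25 to 0.11. None passed the threshold, against 5.64% of all genes on the higher side and 14.4% on the lower side. Among brighter genes, which most of the 9 are, these shares were 2.55% and 4.09%. Dnajc19 and Dnajc15, J proteins of the import motor at the inner membrane, stood at 0.02 (10359 and 12141) and −0.09 (5096 and 5508). Dnajc11, a protein tied to the cristae, was read by 9 spots and stood at −0.09 with an SD over spots of 0.06. Of the 23 partner genes of import and mitochondrial quality control, none passed the threshold, and the median was 0.0045. All 23 were among the brighter genes, of which 2.55% lay past it on the higher side and 4.09% on the lower side. The highest were the iron-sulfur cochaperone Hscb (0.20) and the protease genes Clpx (0.20) and Yme1l1 (0.20, with 0.04 at both other probes), the lowest was the import receptor Tomm20 (−0.15), and the mitochondrial HSP90 Trap1 stood at 0.14.

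The CCT chaperonin, a double ring that folds actin and tubulin, had 8 members measured, all among the brighter genes. None passed the threshold, against 2.55% of all brighter genes on the higher side and 4.09% on the lower side. Cct2 gave 34293 and 39144, Cct5 30891 and 35934, and Cct4 12137 and 13944, with log2 differences of −0.01, 0.01 and −0.0048. Cct7 (28165 and 30351) stood at −0.10, Cct8 (7931 and 8403) at −0.12 and Cct3 (2894 and 2871) at −0.22. Cct6a and its germ cell paralog Cct6b, whose RNAs a probe could confuse, stood at −0.14 (2458 and 2577) and −0.10 (8752 and 9417). So 3 of the 8 exceeded the all-gene median, and the spread among subunits was smaller than the error of 1 spot, with an SD of 0.08. Relative to the median of all genes, the CCT median was −0.07, and it lay between −0.09 and −0.02 in the 13 ways of processing tried.

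Tcp1, which encodes the CCT1 subunit of that ring but is outside the set by its symbol, differed from the rest. It gave 6682 untreated and 11004 with BSP-II, a log2 difference of 0.51 (1.43-fold), from 1 probe at a spot that was not clustered. It lay 0.50 above Cct5, the highest of the 8 measured CCT members, a gap that was 0.33 after local medians on the array were subtracted. The gap was 0.47 with loess scaling and with normexp, 0.50 with quantile scaling and 0.53 without background subtraction. The other ways only shift a whole array, filter genes or choose among probes. They could not change the gap between Tcp1 and Cct5, each read by 1 probe. The prefoldin genes, which pass actin and tubulin to the ring, stayed between −0.17 (Pfdn6) and 0.14 (Pfdn5), but the second Pfdn5 probe gave −0.92. Of the phosducin-like regulators, Pdcl3 was at 0.35 at low signals (54.2 and 79.9), with 1.03 at its other probe, and Txndc9 at 0.21 with −0.01 and −0.02.

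**Figure D3:**
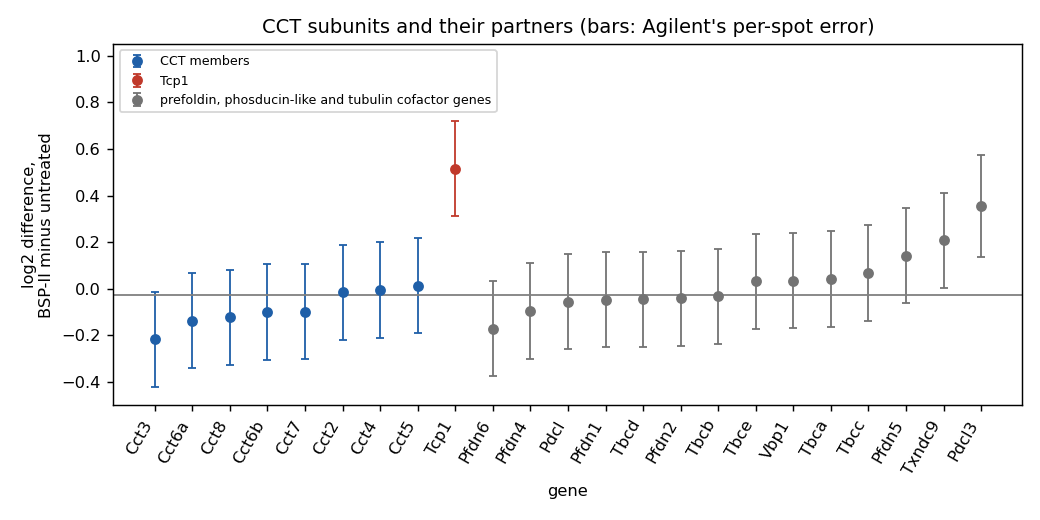
Log2 difference (BSP-II minus untreated, vertical axis) of the 8 measured CCT members (blue), Tcp1 (red) and prefoldin, phosducin-like and tubulin cofactor genes (grey), with bars for Agilent's error of the spots used and a grey line at the median of all genes. The CCT members lie between −0.22 and 0.01 and Tcp1 at 0.51.

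The J-domain proteins of class A and B, which deliver unfolded proteins to HSP70, held no gene past the threshold by the probe used. Over all genes, 5.64% lay past it on the higher side and 14.4% on the lower side. The DNAJA median lay 0.02 above that of all genes. Dnaja1, a main cytosolic partner of HSC70, gave 2619 and 3066, a difference of 0.02, with −0.03 at a probe of like signal and −0.34 at a dim one (43.6 and 39.7). Dnaja2 gave 8813 and 9607 (−0.08). Dnaja3, the mitochondrial partner of mortalin, gave 2696 and 3024 (−0.04), with 0.15 at its other probe, and the dim Dnaja4 stood at 0.20 (41.9 and 55.6).

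Of the DNAJB genes, 7 of 9 were measured, 6 of those lay above the all-gene median, and none passed the threshold. The family median relative to all genes was 0.10 and ranged from 0.0041 to 0.12 over the 13 ways of processing. Dnajb1, the inducible HSP40, gave 1242 and 1432, a difference of 0.00065, with 0.11 at its other probe. Dnajb6, which holds back aggregation, gave 1881 and 1909 (−0.18). Another Dnajb6 probe gave −0.15 and the last 0.40 (1130 and 1723), so the probes split by direction. Dnajb12 was at 0.12, Dnajb2 at 0.13, Dnajb4 at 0.08, and Dnajb13, a component of sperm axonemes, at 0.26 with low signals (60.2 and 83.0). Dnajb8 was at −0.0074 near background, and Dnajb3 and Dnajb7 were above background on neither array.

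DNAJC genes, the most diverse class, had 25 of 26 members measured, of which 13 lay above the median of all genes. The highest was Dnajc18, a J protein of the ER membrane, at 679 and 996, a difference of 0.35 (1.27-fold), with 0.11 at its other probe. The lowest of the brighter ones was Dnajc25, at 514 and 423, a difference of −0.48 (1.40-fold lower), from 1 probe. Dnajc5g, a germ cell relative of the cysteine string protein, was at −0.52 near background (30.8 and 24.8), with −0.17 at its other probe. With normexp Dnajc5g came to −0.15. Of the 25, 1 thus lay past the threshold on the higher side and 2 on the lower, against 5.64% and 14.4% of all genes. The other 22 stayed within the threshold by the probe used, though not by every other probe.

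Those 22 held genes of unlike roles on both sides of 0. Dnajc7, which binds both HSP70 and HSP90, gave 2992 and 2976 (−0.21), and Dnajc5, the cysteine string protein, −0.26 with 0.16 at its other probe. Dnajc9, a histone chaperone of dividing cells, gave 8456 and 8834 (−0.14), with −0.33 at its other probe. Dnajc2, the ribosome-bound partner of Hspa14, gave 3159 and 3422 (−0.09), with 0.24 at its other probe. The ER proteins Dnajc1 and Dnajc10 stood at −0.12 and −0.10 (other probes of Dnajc10 from −0.17 to 0.28), and the splicing-related Dnajc8 and Dnajc17 at 0.06 and 0.19. Dnajc24, which serves diphthamide synthesis, was at −0.13 and Dnajc21, a factor of ribosome maturation, at 0.10. The rest were Dnajc12 (0.23), Dnajc16 (0.16), Dnajc22 (0.15), Dnajc28 (0.11), Dnajc30 (0.02), Dnajc27 (0.01, with 0.13 and, near background, −0.43 at its other probes), Dnajc14 (0.0014), Dnajc4 (−0.02) and the dim Dnajc5b (−0.21). Another Dnajc28 probe read 7.42 untreated, not above background, and 19.6 with BSP-II, at least 1.49-fold higher. Dnajc6, the auxilin of neurons, was above background on neither array.

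Small heat shock proteins, which hold unfolded proteins without ATP, held the lowest value of the whole set, at a weak signal. Hspb7, known from heart muscle, gave 31.4 and 17.0, a log2 difference of −1.09 (2.13-fold lower), at a clustered spot. Its other probe, printed in 10 spots, was below background on both arrays at 7.74 and 5.57. Hspb6, of smooth and heart muscle, gave 19.6 and 16.9 (−0.42), also at a clustered spot. Both sizes changed with the background correction: Hspb7 came to −0.54 without background subtraction and −0.32 with normexp, and Hspb6 to −0.0045 with normexp. With the lowest signals well above background at 11.4 and 7.66, both genes are read near the limit of the arrays. Hspb1, the widely expressed HSP27, gave 117 and 128 (−0.08), and Hspb8, a partner of Bag3 in clearing misfolded proteins, 1917 and 2098 (−0.07). Hspb11, the ciliary protein, stood at 0.24 (1043 and 1415), and neither Hspb2 nor Hspb3 was measured on both arrays.

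BAG proteins, which release client proteins from HSP70, were all measured, and 5 of 6 lay above the median of all genes. Bag1 gave 2113 and 2884, a difference of 0.24 (1.18-fold) and the highest of the family. Bag2, an inhibitor of the ubiquitin ligase CHIP, gave 2031 and 2540 (0.12, at a clustered spot). Bag6, which shields membrane proteins on their way to the ER, gave 8878 and 10927 (0.09), but a dim probe gave −0.39. Bag3, the family's HSF1 target, gave 991 and 1118 (−0.03), Bag4 was at 0.01 and Bag5 at 0.04. Relative to the median of all genes, the BAG median was 0.09, with a range of 0.06 to 0.14 in the 13 ways of processing. No error of such a median can be had from 1 array a group. The binding proteins Hspbp1 and Hspbap1, grouped by prefix, stood at 0.02 and 0.14, and the CHIP gene Stub1 at 0.05. That gene's list of ubiquitin-linked regulators had 8 of 10 genes measured and a median of 0.03. No gene of it passed the threshold (5.64% of all genes higher and 14.4% lower, 2.55% and 4.09% of brighter genes). Vcp stood at −0.15, Sgta at 0.10, Sgtb at 0.08 and St13 at −0.07.

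In all, 8 members were not measured on both arrays. Hspa1a, Hspb2 and Cct8l1 were well above background by the probe used on the BSP-II array alone, and the others on neither. For those 3 the BSP-II signals (10.9, 10.6 and 12.5) lay about where the untreated array stopped detecting, at 11.4, so that no bound above 1 could be given.

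Repeat readings of a gene by different probes set how firmly single values can be read. Of the 28 members with 2 or more detected probes, 16 had all probes on the same side of 0, as did 2407 of all 4032 such genes. The median gap between the highest and the lowest probe was 0.22, and in 14 of the 28 it exceeded the error of 1 spot. Over all 4032 such genes the median was 0.16 and the share 40.0%. A gap holds the errors of 2 or more probes, so passing the error of 1 spot does not by itself show that probes disagree. The widest gap was that of Dnajc16, at 0.16 and, near background, −0.91 (26.5 and 16.2). Hspd1, Hspa9, Hsp90ab1, Cct2, Dnajc8 and Dnajc1 gave nearly the same value by both probes, with gaps from 0.0029 to 0.05. The plot of these genes by probe shows that no member with 2 or more detected probes passed the threshold in 1 direction by all of them.

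**Figure D4:**
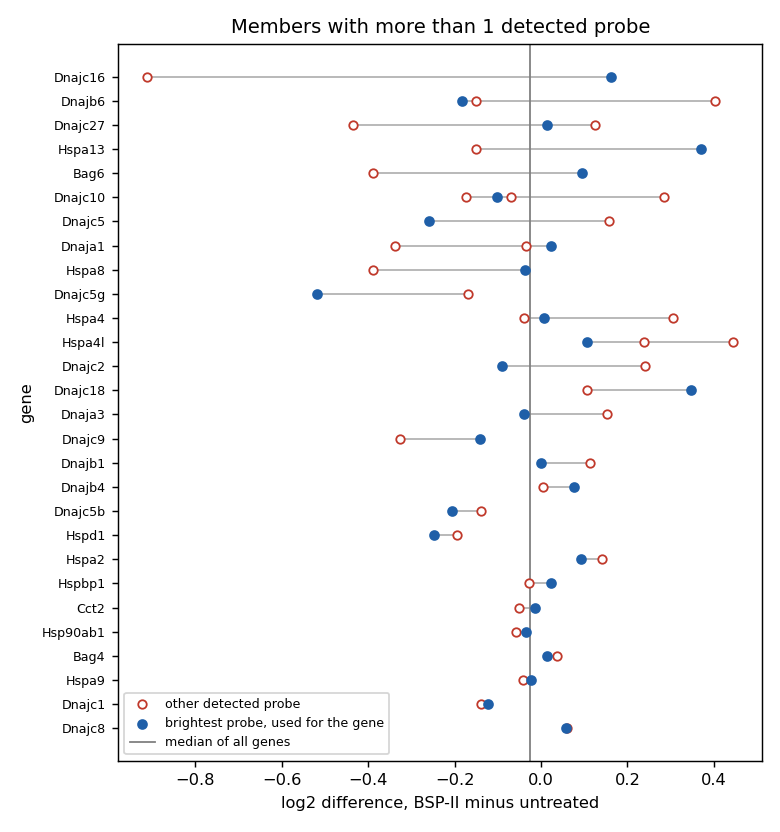
Log2 difference (BSP-II minus untreated, horizontal axis) by each detected probe of the 28 members with more than 1 (vertical axis, ordered by the gap between probes). Blue points are the brightest probe, used for the gene, open red points are the other probes, and the vertical line is the median of all genes; the gap reaches 1.07 in Dnajc16.

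The ER chaperones left out of the set had lower values by most probes. Hspa5, the HSP70 of the ER (BiP), gave 66257 and 60386, a difference of −0.34, and Dnajb9, its J-domain partner, −0.31 with −0.26 and −0.17 at its other probes. Hsp90b1 stood at −0.09 and −0.54 at its other probe, and Dnajc3 at 0.07 with −0.12, −0.38 and −0.13. Beside them the cytosolic partners with the same tasks stood at −0.04 with −0.39 at the other probe (Hspa8), −0.04 by 1 probe (Hsp90aa1) and 0.00065 with 0.11 at the other probe (Dnajb1). Hspa5 was past the threshold (4.09% of brighter and 14.4% of all genes), and the difference between the compartments was not tested.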

How the data were processed

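RNA of 1 untreated and 1 BSP-II culture was read in 1 colour (Cy3) on arrays of 45018 spots. The submitters' processing notes name Agilent Feature Extraction 10.5.1.1. Deposited intensity values are, per the file headers, the background-subtracted processed signal with its error and the raw median signal; the deposited flags (unit "other") call spots outliers or well above background. The authors' value table, on a log2 scale, matched the processed signal, after log2, with a fixed shift of −4.85 (untreated) or −4.94 (BSP-II), within 0.0001 for 99.8% of its 23296 probes.

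Control spots and 189 outlier spots were left out (1 on a member's probe), spots of a probe averaged on the log2 scale, and the 75th percentile subtracted. A probe counted as above background where a share of 0.5 or more of its spots were. Accessions were matched to RefSeq (GRCm38.p6) for names alone (25091 of 41163 probes, 61.0%). The brightest probe stood for a gene. No spot was saturated, and the number of arrays limits the precision. Named genes followed a fixed rule: all members, up to 4 genes of each partner list with the largest difference, and a few fixed partners; Pfdn5, Cd2, Csf1r, Jchain, Cd79a and Epcam were named after values were seen, and 1 gene that the rule takes is not reported here. Members and lists were chosen with earlier results of these data known. Alternatives changed scaling, background, dim-probe filter, probe choice and position. Python 3.11.15, numpy 2.4.6, pandas 2.3.3, statsmodels 0.14.6, matplotlib 3.10.9, R 4.3.3 and limma 3.58.1 (normexp) were used.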

Additional observations from a re-analysis of the deposited data

How the results depend on the processing

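The median of the chaperones minus that of all genes was 0.0062 and stayed between −0.02 and 0.03 over 12 alternatives. No paired analysis was possible because each group is 1 array. The counts past 0.32 on the log2 scale (2 higher, 4 lower) are small and moved as follows. The share of all genes under the same setting is given in brackets. Higher were 7 of 71 members in the authors' value table (13.9%), 1 without background subtraction (2.39%) and 1 with normexp (2.70%). Among brighter genes, 1 of 49 was higher (2.55%). With either other rule for probes 0 were, be it the median (5.41%) or the smallest difference (4.87%). Lower were 2 with normexp (3.66%), 7 of 80 with no filter on dim probes (24.9%) and 1 of 49 among brighter genes (4.09%). In an alternative chosen after seeing the data, 2 of 64 were lower without clustered spots (14.0%). At 1.5-fold, 0 were higher (1.21%) and 1 lower (4.83%), and at 2-fold 0 were higher (0.202%) and 1 lower (1%). Hspa13 turned to −0.15 with its probe of smallest difference. Of 832 values of single members, 12 moved by more than their spot error besides Hspa13 under that rule, among them Hspb7 to −0.54 without background subtraction and to −0.32 with normexp, and Hspb6 to −0.0045 with normexp. Of 120 family medians, 4 moved by more than 0.07, the SD over repeat spots, which is no error of a median. Many of the single values could not move by construction. The gene filters keep each value, and genes with 1 probe have no other probe. Whole-array shifts were smaller than the usual error of a spot and cancel in medians set against all genes. The small share that moved and the ranges over these ways are thus no measure of stability. The normexp version used the median signal, since the files hold no mean signal. The cause of these moves was not tested. Signals near 11.4 (untreated) or 7.66 (BSP-II) mark what the arrays could detect.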
